A study of Mus musculus with 8 samples.

Results

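The genes described here are 33 listed genes of sterol, mevalonate and fatty acid synthesis, with the regulators of the sterol regulatory element binding proteins (SREBPs). They were taken by name from a list made with earlier results of these data known. Of the 33, 32 were paired with at least 1 transcript accession among the 24921 gene names of the count tables, and 27 passed the filter on low counts, of 10311 genes that did so. The RNA came from mouse embryonic stem (ES) cells of the line V6.5 (C57BL/6-129), which per the labels' protocols were all kept in 2i medium, a medium with inhibitors of MEK and GSK3, on gelatin. There were 4 groups of 2 libraries. Cells that carried OCT4 fused to the degradation tag FKBP (OCT4-FKBP) received a dTAG compound for 24 h, or the solvent DMSO for 24 h. Parental cells without the tag (WT) had LIF withdrawn for 5 days, or normal LIF. The labels do not say whether the tagged line is 1 clone, or whether a group's libraries are separate cultures; the p-values may thus rest on technical spread only. No untagged cells received dTAG, so OCT4 loss and other effects of the compound cannot be told apart.

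Cholesterol is built from acetyl-CoA through mevalonate, isoprenoid diphosphates, squalene and lanosterol, and fatty acids are built from the same acetyl-CoA by carboxylation, chain synthesis, elongation and desaturation. SREBPs are membrane-bound transcription factors made from Srebf1 and Srebf2. SCAP escorts them to the Golgi for cleavage when sterol is low, and INSIG proteins hold SCAP and SREBP in the endoplasmic reticulum when sterol is high. Most of the enzymes below are known SREBP targets, with Srebf2 acting mainly on the sterol genes and Srebf1 mainly on the fatty acid genes. Dividing cells such as ES cells use both branches to make membranes.

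Counted reads per library ranged from 7221451 to 11447468, and replicates of a group differed by more than this depth alone would give. ES cell markers were present: the 9 listed markers summed to 1846 and 1859 CPM (reads scaled to the TMM-adjusted library size) with dTAG, 6020 and 5946 in DMSO, 1969 and 1944 without LIF and 5869 and 5954 with LIF. Of the 7 tested markers, 6 fell and none rose with dTAG, and 5 fell and 2 rose without LIF. Among all tested genes 20.3% fell and 20.1% rose with dTAG, and 34.4% fell and 34.0% rose without LIF. Nanog was at 0 in every library. Pou5f1, the gene of OCT4, had 84.6 and 90.2 CPM with dTAG, 77.5 and 77.8 CPM in DMSO, 205 and 170 CPM without LIF and 425 and 336 CPM with LIF. The tag removes the protein, so this RNA does not check the dTAG label. Tfcp2l1 gave most of the ES cell marker sum with dTAG (1028 and 1026 CPM) and in DMSO (3599 and 3548 CPM). It also did with LIF (3205 and 3152 CPM). Without LIF Tfcp2l1 had 91.4 and 100.5 CPM, and Tdgf1 gave most of the sum (1143 and 1136 CPM). Similar sums thus do not show similar levels of the single markers. The part of the ES cell markers in the results was not tested. Counting was per transcript accession, so reads were lost where the accessions of a gene have the same sequence, and 42.5% of counted plus ambiguous reads were ambiguous. Marker genes were counted in the same way. A marker of any list at 0, such as Nanog, is thus not shown to be absent from the cells. Of the 27 tested members, 22 have 1 accession. The other 5 (Fdps, Pmvk, Stard4, Srebf1 and Acly) have 2 or more, and their values cover only the sequence particular to an accession. Fdft1, Mvd, Mvk, Ggps1 and Scap had 0 to 57 reads in all libraries together and were not tested; such counts say nothing about expression. Hmgcs1 was paired with no accession and is not analysed here. Exons of Acss2, Cyp51, Idi1, Lss and Srebf1 overlap a gene on the opposite strand in GENCODE release M21, and exons of Tm7sf2, Fdps and Scd2 overlap a gene on the same strand. No source used here gives the strand setting of the counting, so reads of overlapping genes could not be told apart. Scd1 and Scd2 are similar copies, so the split of reads between them is uncertain.

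The promoters of 26 members were found by name in the RefSeq promoter table (GRCm38.p6; 250 bases before to 50 after the start, 32 windows). The sterol regulatory element, searched as TCACNCCAC on both strands, was held by 1 of the 26 members, Hmgcs1, which is not analysed here, against 1.44% of the 27025 genes of the table. Among tested genes it was held by 0 of 21 members, against 1.25%. The E-box CACGTG, which SREBPs can also bind, was held by Dhcr7, Insig1, Sc5d, Hsd17b7 and Scap, 5 of 26, against 8.09% of genes. Among tested genes the E-box was held by 4 of 21 members (19.0%), against 11.6%. The NF-Y box CCAAT, the site of a factor known to act with SREBPs, was held by 21 of 26 members (80.8%), against 41.1% of genes. Over tested genes only, a background chosen after seeing the data, it was held by 17 of 21 members (81.0%), against 41.6% of 8050 genes. For the Sp1 box GGGCGG the shares were 81.0% of tested members and 68.1% of tested genes. The windows of 150 bases before the start gave 20 members with an NF-Y box in place of 21. These matches describe letters in a window and were not tested. The 250 bases before the start are shown for 5 members, 5′ to 3′, with matches to the sterol regulatory element, the E-box and the NF-Y box in capitals; no matches overlapped. Hmgcs1 is shown as the holder of the sterol regulatory element, TCACCCCAC, which begins 137 bases before the start, and Insig1 as the member of smallest adjusted p among those with an entry and without that element; it holds an E-box 101 bases before the start. Acss2 and Idi1 had the lowest and the highest fold change without LIF, and Elovl6 the highest with dTAG, among called members with an entry in the table.
Hmgcs1, chr13:119690101-119690350, + strand: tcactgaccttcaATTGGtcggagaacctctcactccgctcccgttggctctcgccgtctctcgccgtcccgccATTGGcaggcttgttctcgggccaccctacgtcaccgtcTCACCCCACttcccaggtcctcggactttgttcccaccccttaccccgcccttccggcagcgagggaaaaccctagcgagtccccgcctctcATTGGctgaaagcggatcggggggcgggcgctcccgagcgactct
Insig1, chr5:28071162-28071411, + strand: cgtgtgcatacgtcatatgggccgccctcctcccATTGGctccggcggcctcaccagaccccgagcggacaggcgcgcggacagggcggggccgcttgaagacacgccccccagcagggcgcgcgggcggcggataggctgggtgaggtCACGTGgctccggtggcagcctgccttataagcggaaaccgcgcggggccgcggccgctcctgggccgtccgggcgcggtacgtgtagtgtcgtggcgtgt
Acss2, chr2:155517793-155518042, + strand: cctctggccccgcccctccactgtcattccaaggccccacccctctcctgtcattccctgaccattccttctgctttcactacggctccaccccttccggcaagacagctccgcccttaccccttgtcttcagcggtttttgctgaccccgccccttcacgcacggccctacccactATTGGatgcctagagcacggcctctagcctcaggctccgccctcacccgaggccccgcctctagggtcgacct
Idi1, chr13:8885356-8885605, + strand: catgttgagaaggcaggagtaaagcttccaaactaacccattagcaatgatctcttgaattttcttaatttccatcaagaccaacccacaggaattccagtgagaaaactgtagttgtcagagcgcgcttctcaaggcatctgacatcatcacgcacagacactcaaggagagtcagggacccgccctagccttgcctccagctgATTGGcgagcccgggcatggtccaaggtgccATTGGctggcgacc
Elovl6, chr3:129532136-129532385, + strand: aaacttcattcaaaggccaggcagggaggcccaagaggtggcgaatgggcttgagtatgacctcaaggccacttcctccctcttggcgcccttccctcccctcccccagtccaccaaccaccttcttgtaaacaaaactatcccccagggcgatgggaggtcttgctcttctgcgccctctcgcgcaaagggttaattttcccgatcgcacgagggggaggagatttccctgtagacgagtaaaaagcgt
Hmgcs1 holds 3 NF-Y boxes in this stretch, Insig1 and Acss2 hold 1 each, Idi1 holds 2, and Elovl6 has no match to any of the 3 motifs.

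The first comparison asked how these genes changed after 24 h of dTAG in the OCT4-FKBP line. The 4 desaturase genes, the elongase gene Elovl6 and the fatty acid synthase gene Fasn rose, and the sterol genes went both ways. The elongase genes Elovl5 and Elovl7, outside the 33, fell. Of the 27 tested members, 11 rose and 4 fell, 15 in all (55.6%), against 40.5% of all tested genes called in this comparison, 20.1% higher and 20.3% lower. The members' median log2 fold change was 0.14, against 0.00 over all tested genes. Both dTAG libraries lay above both DMSO libraries for 17 members and below them for 7, against 34.8% and 35.4% of all tested genes (70.2% either way).

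**Figure D1:**
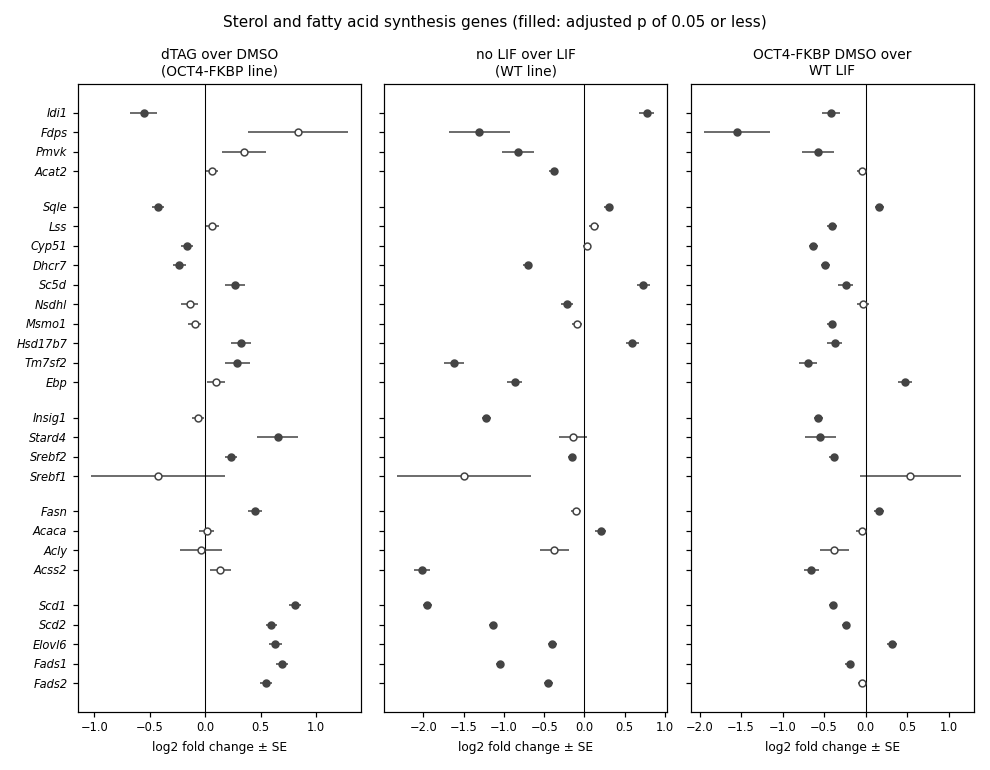
Log2 fold change with its standard error (x axis) for the 27 tested members (rows, grouped by role from isoprenoid steps at the top to elongation and desaturation at the bottom) in dTAG over DMSO, no LIF over LIF, and OCT4-FKBP DMSO over WT LIF; the x axes differ between panels. Filled points passed an adjusted p of 0.05; the 5 elongation and desaturation genes lie right of 0 with dTAG, from 0.54 to 0.81, and left of 0 without LIF, from -0.40 to -1.95.

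All 5 members of elongation and desaturation rose with dTAG, against 20.1% of all tested genes. Scd1, a stearoyl-CoA desaturase that makes monounsaturated fatty acids, had 2116 and 2053 CPM with dTAG, against 1213 and 1169 CPM in DMSO. The 2 dTAG libraries lay well above both DMSO libraries, and the fold change was 1.75 (log2 0.81, SE 0.05, edgeR adjusted p = 1.2e-12). Its neighbour in function, the desaturase Scd2, had 5844 and 5602 CPM with dTAG, against 3868 and 3720 CPM in DMSO. The groups did not overlap, and Scd2 was 1.51-fold higher (log2 0.59, SE 0.05, edgeR adjusted p = 2.4e-10). Elovl6, which elongates saturated and monounsaturated chains, had 1220 and 1192 CPM with dTAG, against 780 and 777 CPM in DMSO. It was 1.55-fold higher, with nearly equal DMSO libraries (log2 0.63, SE 0.06, edgeR adjusted p = 6.6e-10). Fads1, a desaturase of polyunsaturated fatty acids, had 631 and 614 CPM with dTAG, against 391 and 379 CPM in DMSO. Again both dTAG libraries were the higher ones, 1.62-fold on the fitted scale (log2 0.69, SE 0.05, edgeR adjusted p = 2.8e-11). Fads2, the desaturase that acts before Fads1 on polyunsaturated chains, had 455 and 444 CPM with dTAG, against 312 and 305 CPM in DMSO. The increase of Fads2 was 1.46-fold (log2 0.54, SE 0.06, edgeR adjusted p = 6.4e-09).

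**Figure D2:**
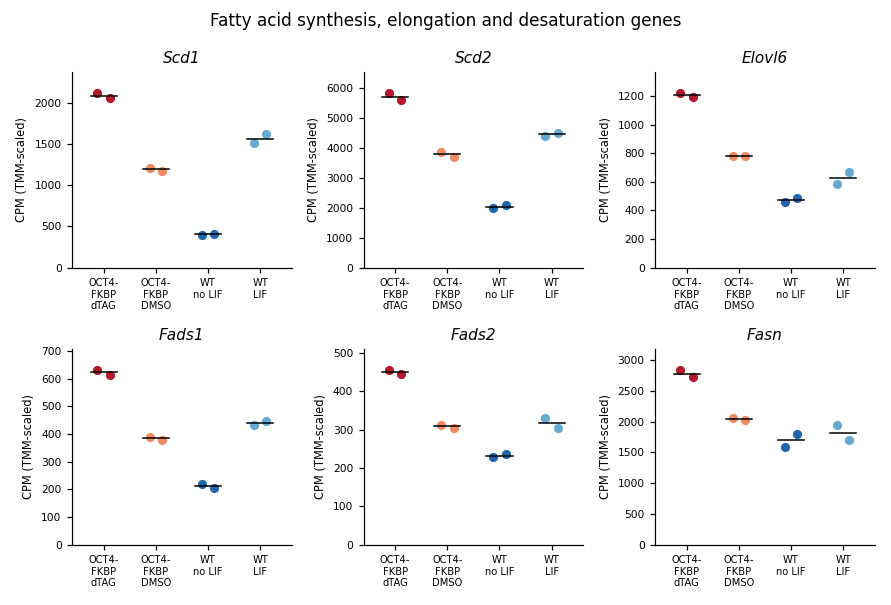
Expression in TMM-scaled CPM (y axis, from 0) of 6 fatty acid genes in OCT4-FKBP cells with dTAG or DMSO and WT cells without or with LIF; points are libraries and bars are means of 2. Scd1, Scd2, Elovl6, Fads1 and Fads2 were highest with dTAG and lowest without LIF; Fasn was highest with dTAG, at 2836 and 2717 CPM, and its libraries without and with LIF overlap.

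Among the 4 genes of fatty acid supply and synthesis, Fasn alone passed the test with dTAG (25.0%, against 40.5% of all tested genes). Fasn, the fatty acid synthase, had 2836 and 2717 CPM with dTAG, against 2050 and 2019 CPM in DMSO. The groups did not overlap (1.36-fold higher, log2 0.45, SE 0.06, edgeR adjusted p = 1.1e-06). Acaca, the acetyl-CoA carboxylase that feeds Fasn, gave a log2 fold change of 0.01 (SE 0.07, edgeR adjusted p = 0.911). Acly and Acss2, which make cytosolic acetyl-CoA from citrate and from acetate, gave -0.04 (SE 0.19) and 0.14 (SE 0.10) and did not pass. A p above the threshold does not show that these 3 stayed level.

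Sterol enzymes differed among themselves in direction with dTAG. Of 10 tested genes from squalene to cholesterol, 3 rose and 3 fell, with log2 fold changes from -0.43 to 0.32, and of 4 tested isoprenoid genes 1 fell. Among all tested genes 20.1% rose and 20.3% fell. Idi1, the isopentenyl diphosphate isomerase, had 15.3 and 15.1 CPM with dTAG, against 22.6 and 22.2 CPM in DMSO. Both dTAG libraries were lower, and Idi1 fell 1.47-fold (log2 -0.56, SE 0.12, edgeR adjusted p = 0.00052). Sqle, the squalene epoxidase, had 314 and 297 CPM with dTAG, against 406 and 414 CPM in DMSO (log2 -0.43, SE 0.05, edgeR adjusted p = 2.9e-07). Dhcr7, the reductase of the last step, and Cyp51, the lanosterol demethylase, also fell, by 0.23 and 0.17 on the log2 scale. In the other direction, the ketoreductase gene Hsd17b7 rose by 0.32 (SE 0.09), the sterol reductase gene Tm7sf2 by 0.29 (SE 0.11) and the sterol desaturase gene Sc5d by 0.27 (SE 0.09). The genes that fell act both early (Idi1, Sqle) and late (Cyp51, Dhcr7) in the chain. Lss, Msmo1, Nsdhl, Ebp, Acat2, Pmvk and Fdps did not pass, with log2 fold changes from -0.14 for Nsdhl to 0.83 for Fdps, a gene with 5 to 32 reads per library.

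Of the regulators, Srebf2 and Stard4 rose with dTAG. Srebf2 had 605 and 557 CPM with dTAG, against 501 and 490 CPM in DMSO (1.17-fold higher, log2 0.23, SE 0.05, edgeR adjusted p = 0.001). Stard4, a sterol transfer protein, had 12.2 and 13.6 CPM with dTAG, against 10.1 and 6.87 CPM in DMSO. The DMSO libraries of Stard4 stood apart from each other more than the dTAG libraries (1.57-fold higher, log2 0.65, SE 0.18, edgeR adjusted p = 0.005). Insig1 had 235 and 242 CPM with dTAG, against 244 and 255 CPM in DMSO, a log2 fold change of -0.07 (SE 0.06, edgeR adjusted p = 0.376). Srebf1, with 56 reads over all libraries, gave -0.43 (SE 0.61) and did not pass.

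Leaving out 1 library ended 6 of these calls. Sc5d lost its call without any 1 of the 4 OCT4-FKBP libraries (edgeR adjusted p = 0.064 to 0.078). Cyp51 lost it without dTAG replicate 1 (0.061), dTAG replicate 2 (0.099) or DMSO replicate 1 (0.145), and Tm7sf2 without the same libraries (edgeR adjusted p = 0.108, 0.159 and 0.259) and with DESeq2 (adjusted p = 0.140). Hsd17b7 lost it without dTAG replicate 2 (0.073) or DMSO replicate 1 (0.127), Stard4 without dTAG replicate 2 (0.052) or DMSO replicate 2 (0.252), and Srebf2 without dTAG replicate 1 (0.078). Nsdhl gained a call without LIF replicate 1 (log2 -0.15, edgeR adjusted p = 0.050), and Nsdhl and Msmo1 did in a fit of the 4 OCT4-FKBP libraries alone (0.025 and 0.021). Without dTAG replicate 2, 7 members rose in place of 11. The 5 elongation and desaturation genes, Fasn, Idi1, Sqle and Dhcr7 were called in the same direction in all 17 other settings in which they were tested. Trophoblast markers summed to 279 and 258 CPM with dTAG, against 58.0 and 60.8 CPM in DMSO, with 5 of 7 tested markers higher, none lower, Gata3 at 0 in every library and Elf5 at 0 with dTAG. Endoderm markers summed to 23.2 and 19.5 CPM with dTAG, against 2.25 and 2.55 CPM in DMSO, with 1 of 4 tested markers higher and Gata4 and Foxa2 at 0. Fibroblast and smooth muscle markers summed to 23.8 and 19.4 CPM with dTAG, against 27.1 and 27.4 CPM in DMSO, with 1 of 7 tested markers higher, 1 lower and Dcn and Postn at 0. Cdx2 (192 and 169 CPM) gave most of the trophoblast sum with dTAG, and Gata6 (20.6 and 16.9 CPM) most of the endoderm sum. Among all tested genes 20.1% rose and 20.3% fell with dTAG. The part of these markers in the changes above was not tested. In bulk RNA a change in the cells present and a change in RNA per cell cannot be told apart.

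The second comparison asked how the same genes changed over 5 days without LIF in WT cells. Desaturases, the elongase, the acetate-activating enzyme and Insig1 fell, while Idi1, Sqle, Sc5d and Hsd17b7 of the sterol branch rose. Of the 27 tested members, 15 fell and 5 rose (74.1%), against 68.4% of all tested genes, 34.4% lower and 34.0% higher. The median log2 fold change of the members was -0.38, against -0.02 over all tested genes. For 16 members both libraries without LIF lay below both with LIF and for 7 above, against 41.2% and 40.3% of all tested genes (81.5% either way).

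Each of the 5 elongation and desaturation genes fell without LIF, against 34.4% of all tested genes. Scd1 had 395 and 413 CPM without LIF, against 1505 and 1623 CPM with LIF. It was 3.87-fold lower, with a wide gap between the groups (log2 -1.95, SE 0.06, edgeR adjusted p = 5.4e-21). Scd2 had 1985 and 2081 CPM without LIF, against 4419 and 4510 CPM with LIF (2.20-fold lower, log2 -1.14, SE 0.05, edgeR adjusted p = 1.1e-16). For Fads1 the levels were 218 and 206 CPM without LIF, against 432 and 447 CPM with LIF. The groups did not overlap (2.07-fold lower, log2 -1.05, SE 0.06, edgeR adjusted p = 2.9e-15). Fads2 and Elovl6 fell less, by 0.45 (SE 0.06) and 0.40 (SE 0.06) on the log2 scale. Fasn, in contrast to its increase with dTAG, had 1590 and 1796 CPM without LIF, against 1936 and 1693 CPM with LIF; the libraries overlapped (log2 -0.10, SE 0.06, edgeR adjusted p = 0.146). Without LIF replicate 2 the value for Fasn was -0.17 and passed (edgeR adjusted p = 0.008), as it did without no-LIF replicate 2 (-0.18, edgeR adjusted p = 0.021).

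The largest decrease of a member was that of Acss2, the cytosolic acetyl-CoA synthetase. Acss2 had 18.9 and 15.1 CPM without LIF, against 73.8 and 66.0 CPM with LIF. Both libraries without LIF were far lower (4.05-fold, log2 -2.02, SE 0.11, edgeR adjusted p = 2.7e-15). Acaca, by contrast, had 163 and 179 CPM without LIF, against 156 and 140 CPM with LIF, and rose by 0.20 (SE 0.07, edgeR adjusted p = 0.009); without no-LIF replicate 2 the call was lost (0.089). Acly gave -0.37 (SE 0.18, edgeR adjusted p = 0.066), and this value passed in 7 other settings, among them the fits without no-LIF replicate 2 (0.009) and LIF replicate 2 (0.048).

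Of the 4 tested regulators, Insig1 and Srebf2 passed the test without LIF, and both fell. Insig1, itself a known SREBP target, had 162 and 156 CPM without LIF, against 382 and 359 CPM with LIF. It was 2.33-fold lower with no overlap (log2 -1.22, SE 0.06, edgeR adjusted p = 3e-16). Srebf2 had 575 and 587 CPM without LIF, against 665 and 629 CPM with LIF (log2 -0.15, SE 0.05, edgeR adjusted p = 0.013). This small decrease was no longer called without no-LIF replicate 1 (0.069), without LIF replicate 1 (0.059), with DESeq2's size factors (0.077) or with DESeq2 (adjusted p = 0.107). Stard4 and Srebf1 did not pass, at -0.15 (SE 0.17) and -1.50 (SE 0.83); without LIF replicate 1, Srebf1 passed at -2.12 (edgeR adjusted p = 0.041).

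The sterol branch was split without LIF. Of the 10 tested genes from squalene to cholesterol, 4 fell and 3 rose, with log2 fold changes from -1.62 to 0.73. Among all tested genes 34.4% fell and 34.0% rose. Tm7sf2 had 18.01 and 13.09 CPM without LIF, against 46.4 and 52.0 CPM with LIF (3.07-fold lower, log2 -1.62, SE 0.12, edgeR adjusted p = 5.3e-12). Ebp, the sterol isomerase gene, had 38.8 and 51.0 CPM without LIF, against 82.2 and 78.5 CPM with LIF (1.82-fold lower, edgeR adjusted p = 6.8e-09). Dhcr7 had 209 and 202 CPM without LIF, against 324 and 347 CPM with LIF (1.63-fold lower, edgeR adjusted p = 1.7e-11). These 3 enzymes act after lanosterol, and the libraries of the 2 groups were apart for each. Sc5d, which acts between Ebp and Dhcr7, went the other way, with 130 and 118 CPM without LIF, against 67.8 and 83.3 CPM with LIF (1.66-fold higher, log2 0.73, SE 0.08, edgeR adjusted p = 1.4e-08). Hsd17b7 had 82.8 and 79.1 CPM without LIF, against 53.0 and 54.6 CPM with LIF (1.51-fold higher, edgeR adjusted p = 5.7e-07). Sqle had 459 and 442 CPM without LIF, against 365 and 366 CPM with LIF (1.23-fold higher, edgeR adjusted p = 1.5e-05). So genes of adjacent late steps differed in direction. Nsdhl fell by 0.21 on the log2 scale, a call lost without either no-LIF library (0.069 each), without LIF replicate 2 (0.496) and with DESeq2 (adjusted p = 0.110). Lss, Cyp51 and Msmo1 gave 0.12, 0.03 and -0.09 and did not pass; Lss passed without no-LIF replicate 1 (log2 0.20, adjusted p = 0.016) and with either other scaling (0.021 and 0.032), and Msmo1 without LIF replicate 1 (log2 -0.19, adjusted p = 0.002).

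**Figure D3:**
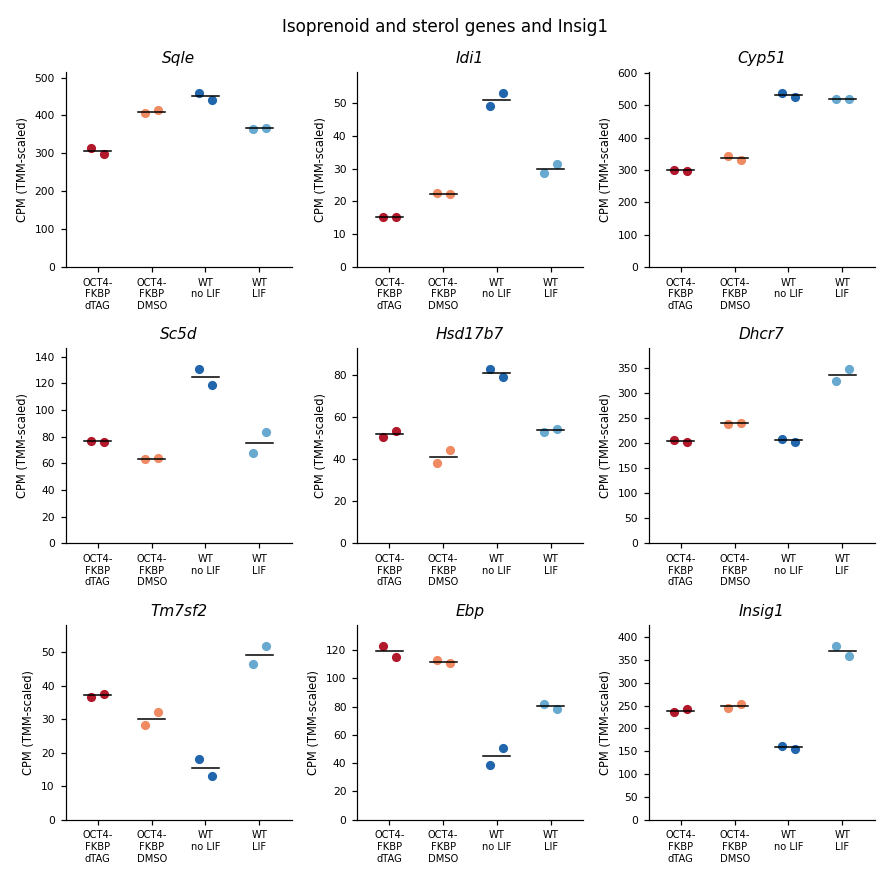
Expression in TMM-scaled CPM (y axis, from 0) of 8 isoprenoid and sterol enzyme genes and Insig1 in OCT4-FKBP cells with dTAG or DMSO and WT cells without or with LIF; points are libraries and bars are means of 2. Idi1 ranged from 15.1 CPM with dTAG to 53.0 CPM without LIF, whereas Insig1, Tm7sf2 and Ebp were lowest without LIF.

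All 4 tested isoprenoid genes were called without LIF, a comparison in which 68.4% of all tested genes were called. Idi1 had 49.1 and 53.0 CPM without LIF, against 28.5 and 31.3 CPM with LIF (1.71-fold higher, log2 0.77, SE 0.10, edgeR adjusted p = 8e-08). Pmvk, the phosphomevalonate kinase gene, had 7.34 and 4.36 CPM without LIF, against 10.95 and 10.7 CPM with LIF (1.77-fold lower, edgeR adjusted p = 0.00061). The thiolase gene Acat2 fell by 0.38 (SE 0.06). Fdps, which makes farnesyl diphosphate, had 1.37 and 0.68 CPM without LIF, against 2.83 and 2.59 CPM with LIF, and fell by 1.30 (SE 0.38, edgeR adjusted p = 0.004). The call for Fdps was lost without no-LIF replicate 2 (log2 -0.97, adjusted p = 0.051) and with DESeq2 (adjusted p = 0.061). Idi1 was thus the isoprenoid gene that rose, and Acat2, Pmvk and Fdps fell. Summed markers of other cell types were much higher without LIF. Trophoblast markers summed to 1508 and 1402 CPM without LIF, against 24.3 and 23.5 CPM with LIF. Of 9 listed, 7 were tested and all 7 were higher, with Gata3 at 0 in every library and Elf5 at 0 without LIF. Fibroblast and smooth muscle markers summed to 923 and 881 CPM without LIF, against 15.3 and 15.7 CPM with LIF. Of 11 listed, 7 were tested and 6 were higher, with Dcn and Postn at 0. Endoderm markers summed to 71.6 and 81.5 CPM without LIF, against 4.502 and 2.823 CPM with LIF. Of 12 listed, 4 were tested, 3 higher and 1 lower, with Gata4 and Foxa2 at 0. Among all tested genes 34.0% were higher. Cubn, Apob, Acta2 and Col3a1 had 0.77 CPM or less in every library of the other groups. They passed the filter only through the libraries without LIF, so their calls as higher are not independent of it. Most of the trophoblast sum without LIF came from Krt8 (521 and 477 CPM) and Krt18 (878 and 823 CPM). Cdx2 had 2.73 and 1.5 CPM there. Tagln (763 and 725 CPM) gave most of the fibroblast and smooth muscle sum, and Cubn (57.45 and 62.72 CPM) most of the endoderm sum. The part of all these markers in the changes of the lipid genes was not tested.

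The difference between the 2 responses was tested directly; the responses have separate control libraries. Of the 27 members, 20 (74.1%) differed, 16 with the higher value for dTAG and 4 with the lower, against 55.0% of all tested genes, 28.6% higher and 26.4% lower. Of the 12 members called in both comparisons, 9 went in opposite directions. The same share over all tested genes was not computed, so this count cannot be called particular to the members. Scd1, Scd2, Elovl6, Fads1, Fads2, Srebf2 and Tm7sf2 rose with dTAG and fell without LIF, whereas Sqle and Idi1 fell with dTAG and rose without LIF. Dhcr7 fell and Sc5d and Hsd17b7 rose in both. The largest differences were those of Scd1 (log2 2.76, SE 0.08, edgeR adjusted p = 1.7e-20), Acss2 (2.15, SE 0.14, edgeR adjusted p = 1.2e-12) and Fdps (2.14, SE 0.59, edgeR adjusted p = 0.003). Tm7sf2, Fads1 and Scd2 followed with 1.91, 1.74 and 1.73. Idi1 had the most negative difference, -1.33 (SE 0.15, edgeR adjusted p = 5.1e-08), and Sqle the next, -0.73 (SE 0.08, edgeR adjusted p = 6.1e-09). The calls of Stard4 (0.80) and Cyp51 (-0.20) were lost without some libraries, Stard4 without DMSO replicate 2 (adjusted p = 0.136) and Cyp51 without dTAG replicate 1 (0.059), dTAG replicate 2 (0.087) or DMSO replicate 1 (0.124). Stard4 also lost it with DESeq2 (adjusted p = 0.077) and Cyp51 with no filter (0.075). Calls were gained for Hsd17b7 without DMSO replicate 1 (0.029) or LIF replicate 2 (0.035) and for Acaca without no-LIF replicate 1 (0.035) or LIF replicate 1 (0.015), and for both with either other scaling (0.036 to 0.047). Treatment time and cell line differ between the 2 responses, and these cannot be told apart from the treatment.

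**Figure D4:**
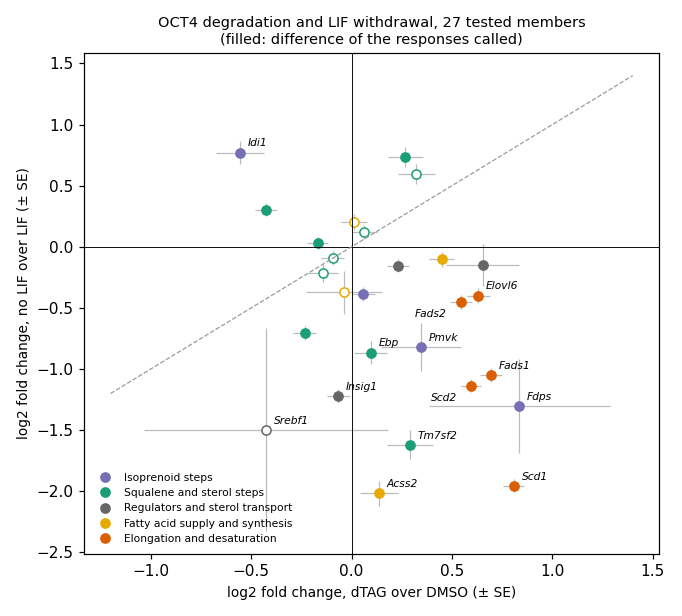
Log2 fold change with dTAG over DMSO (x axis) against log2 fold change without LIF over LIF (y axis), each with its standard error, for the 27 tested members, coloured by role; filled points have a called difference between the responses, and the dashed line marks equal responses. The elongation and desaturation genes lie at the lower right, Scd1 at 0.81 and -1.95, and Idi1 lies at the upper left, at -0.56 and 0.77.

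The third comparison set the 2 control groups against each other, OCT4-FKBP cells in DMSO against WT cells with LIF. Sterol genes were mostly lower in the tagged line before any dTAG. Effects of the tag, of the line's history, of DMSO and of culture batch cannot be told apart, and the comparison shares DMSO libraries with the first comparison and LIF libraries with the second. Of the 27 tested members, 17 were lower and 4 higher in the tagged line (77.8%), against 40.6% of all tested genes, 22.1% lower and 18.5% higher. The median log2 fold change of the members was -0.38, against -0.03 over all tested genes. Both DMSO libraries lay below both LIF libraries for 19 members and above them for 4, against 36.8% and 30.8% of all tested genes (67.5% either way).

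Markers differed between these groups too. Of 7 tested ES cell markers 3 were higher and 2 lower in the tagged line. Pou5f1 was among the lower, with 77.5 and 77.8 CPM in tagged DMSO cells, against 425 and 336 CPM in WT cells with LIF. It is the gene of the tagged protein, and whether the tag affected its counted reads was not tested. Trophoblast markers summed to 58.0 and 60.8 CPM in tagged DMSO cells, against 24.3 and 23.5 CPM in WT cells, with 2 of 7 tested higher and 2 lower. Cdx2 had 30.7 and 35.0 CPM in tagged DMSO cells, against 0.53 and 1.06 CPM in WT cells. Fibroblast and smooth muscle markers summed to 27.1 and 27.4 CPM in tagged DMSO cells, against 15.3 and 15.7 CPM in WT cells, with Thy1 higher and Twist1 lower of 7 tested. Endoderm markers summed to 2.25 and 2.55 CPM in tagged DMSO cells, against 4.502 and 2.823 CPM in WT cells, with none of 4 tested called. Nanog, Gata3, Gata4, Foxa2, Dcn and Postn were at 0 in every library, which does not show that they were absent. Among all tested genes 18.5% were higher and 22.1% lower in the tagged line. The part of these markers in the lipid gene differences was not tested.

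Of the 10 genes from squalene to cholesterol, 7 were lower and 2 higher in the tagged line, against 22.1% and 18.5% of all tested genes. Cyp51 had 344 and 329 CPM in tagged DMSO cells, against 520 and 520 CPM in WT cells with LIF. The LIF libraries were nearly equal, and Cyp51 was 1.55-fold lower (log2 -0.63, SE 0.05, edgeR adjusted p = 4.2e-10). Tm7sf2 had 28.2 and 32.0 CPM in tagged DMSO cells, against 46.4 and 52.0 CPM in WT cells (1.61-fold lower, log2 -0.69, SE 0.11, edgeR adjusted p = 1.5e-05). Dhcr7, Lss, Msmo1, Hsd17b7 and Sc5d were lower by 0.49, 0.41, 0.41, 0.37 and 0.24 on the log2 scale. Ebp, with 113 and 111 CPM in tagged DMSO cells, against 82.2 and 78.5 CPM in WT cells, was higher (log2 0.47, SE 0.09, edgeR adjusted p = 6.9e-05). Sqle, with 406 and 414 CPM in tagged DMSO cells, against 365 and 366 CPM in WT cells, was higher by 0.17 (SE 0.05, edgeR adjusted p = 0.013). Nsdhl gave -0.03 and did not pass. Both of the higher genes thus belonged to the same chain as the 7 lower ones.

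The regulators and the isoprenoid genes were also lower in the tagged line, apart from Srebf1 and Acat2, which did not pass. Insig1 had 244 and 255 CPM in tagged DMSO cells, against 382 and 359 CPM in WT cells (1.48-fold lower, log2 -0.57, SE 0.06, edgeR adjusted p = 8.3e-09). Srebf2 was lower by 0.39 (SE 0.05) and Stard4 by 0.54 (SE 0.18). Fdps had 0.98 and 0.88 CPM in tagged DMSO cells, against 2.83 and 2.59 CPM in WT cells (2.93-fold lower, log2 -1.55, SE 0.40, edgeR adjusted p = 0.003), from 7 and 10 reads in the DMSO libraries. Pmvk and Idi1 were lower by 0.57 (SE 0.19) and 0.41 (SE 0.11). Acss2 had 43.5 and 45.3 CPM in tagged DMSO cells, against 73.8 and 66.0 CPM in WT cells (1.57-fold lower, log2 -0.66, SE 0.09, edgeR adjusted p = 2.5e-06). Among the other fatty acid genes, Scd1, Scd2 and Fads1 were lower by 0.39, 0.23 and 0.19, Elovl6 and Fasn were higher by 0.32 and 0.17, and Fads2, Acaca and Acly did not pass.

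Of the 21 calls between the control groups, 9 were lost in at least 1 other setting. Sc5d lost its call without either DMSO library (adjusted p = 0.161 and 0.167), without LIF replicate 2 (0.640), without either dTAG library (0.067 and 0.068) and without no-LIF replicate 2 (0.070). Stard4 lost it without DMSO replicate 2 (0.514) or LIF replicate 2 (0.153), and Pmvk without DMSO replicate 1 (0.105), DMSO replicate 2 (0.053) or LIF replicate 1 (0.063). Fads1 lost it without DMSO replicate 1 (0.061), DMSO replicate 2 (0.184) or LIF replicate 2 (0.056), and Fasn without DMSO replicate 1 (0.053) or LIF replicate 2 (0.141). Hsd17b7 lost it without DMSO replicate 1 (0.093). Sqle (0.067), Idi1 (0.065) and Fdps (0.057) lost it without DMSO replicate 2. With DESeq2, Fdps (0.054), Sc5d (0.119), Pmvk (0.126) and Stard4 (0.125) lost theirs. Sc5d also lost it with no filter (0.059), with DESeq2's size factors (0.051) and in the 4 libraries alone (0.092), as Stard4 did (0.051), and Fasn lost it with the stricter filter (0.065). Acly gained a call without DMSO replicate 2 (log2 -0.60, 0.042). The calls of Cyp51, Dhcr7, Insig1, Lss, Msmo1, Tm7sf2, Ebp, Srebf2, Acss2, Scd1, Scd2 and Elovl6 were kept in all 17 other settings in which they were tested.

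Set side by side over the 4 groups, none of the 27 members was lowest in WT cells with LIF. The lowest mean was without LIF for 14, in DMSO for 7 and with dTAG for 6. The highest mean was in WT cells with LIF for 10, with dTAG for 9, without LIF for 7 and in DMSO for 1. Of all tested genes, 20.8% were lowest in WT cells with LIF, 36.2% without LIF, 17.1% in DMSO and 25.9% with dTAG. For the highest mean these shares were 24.7% with LIF, 35.7% without LIF, 15.4% in DMSO and 24.2% with dTAG. Of the 17 members that were lower in tagged DMSO cells than in WT cells, both dTAG libraries lay below both LIF libraries for 11: Acss2, Cyp51, Dhcr7, Fdps, Idi1, Insig1, Lss, Msmo1, Pmvk, Srebf2 and Tm7sf2. For Scd1, Scd2 and Fads1 both dTAG libraries lay above both LIF libraries, and for Hsd17b7, Sc5d and Stard4 they overlapped. Of all 2283 genes lower in tagged DMSO cells, 82.3% had both dTAG libraries below and 8.45% above. These positions describe library values and were not tested.

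Other genes of lipid metabolism were read from 4 lists, to be set against all tested genes, of which 40.5% were called with dTAG (20.1% higher, 20.3% lower), 68.4% without LIF (34.0% higher, 34.4% lower) and 40.6% in tagged DMSO cells (18.5% higher, 22.1% lower). For sterol uptake, transport and sensing, 13 of 20 genes were tested; with dTAG 6 rose and 2 fell, without LIF 3 rose and 7 fell, and in tagged DMSO cells 2 were higher and 5 lower. These are 61.5%, 76.9% and 53.8% called. Soat1, which esterifies cholesterol for storage, averaged 245 ± 20.2 CPM with dTAG and 24.0 ± 0.56 CPM in DMSO (SD, n = 2), 10.2-fold higher (edgeR adjusted p = 2.3e-21). Without LIF it averaged 392 ± 6.19 CPM, against 23.8 ± 2.44 CPM with LIF, 16.6-fold higher (edgeR adjusted p = 3.6e-24). Soat1 was thus far higher after both treatments. Mylip, a ubiquitin ligase for the LDL receptor, was 2.37-fold higher with dTAG, and Npc2, a lysosomal cholesterol carrier, was 2.55-fold lower without LIF. Abca1, a cholesterol efflux pump, had 23.9 and 25.0 CPM with dTAG, 12.8 and 12.6 CPM in DMSO, 4.87 and 7.23 CPM without LIF and 34.0 and 32.1 CPM with LIF. It was 2.61-fold lower in tagged DMSO cells than in WT cells (edgeR adjusted p = 3.8e-09), and its responses to dTAG and to LIF withdrawal differed by 3.45 on the log2 scale (SE 0.20, edgeR adjusted p = 9.8e-14). Npc1, a lysosomal cholesterol exporter, was 1.30-fold lower in tagged DMSO cells, and for Npc2 the responses differed by 1.49 (SE 0.07).

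Fatty acid oxidation genes, tested for 15 of 17, went both ways with dTAG (6 higher, 4 lower; 66.7% called, against 40.5% of all tested genes). Without LIF 12 fell and 2 rose (93.3% called, against 68.4%), with a median log2 fold change of -0.76, against -0.02 over all tested genes. Cpt1a, the entry step of mitochondrial oxidation, averaged 113 ± 0.41 CPM with dTAG and 269 ± 3.16 CPM in DMSO (2.37-fold lower, edgeR adjusted p = 3e-15). It averaged 32.9 ± 0.31 CPM without LIF and 300.2 ± 14.0 CPM with LIF (9.12-fold lower, edgeR adjusted p = 3.2e-23). Slc25a20, the carnitine carrier, rose 2.46-fold with dTAG and fell 5.24-fold without LIF, and its responses differed by 3.69 on the log2 scale (SE 0.09, edgeR adjusted p = 3.5e-21). The difference for Cpt1a was 1.94 (SE 0.09). In tagged DMSO cells 4 genes were higher, among them Slc25a20 (1.46-fold) and Etfa (1.33-fold), an electron carrier subunit, and 3 were lower (46.7% called, against 40.6%).

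Of 22 genes of fatty acid activation, elongation and lipid assembly, 14 were tested. With dTAG 3 rose and 6 fell, without LIF 4 rose and 8 fell, and in tagged DMSO cells 4 were higher and 1 lower. The called shares were 64.3%, 85.7% and 35.7%, against 40.5%, 68.4% and 40.6% of all tested genes. Acacb, the mitochondrial-surface acetyl-CoA carboxylase, fell in both, with log2 fold changes of -1.215 with dTAG and -2.485 without LIF, and was 1.74-fold higher in tagged DMSO cells (edgeR adjusted p = 1.8e-09). Elovl7, another elongase, fell 5.17-fold with dTAG, the opposite direction to Elovl6. The elongase gene Elovl5, named after its values were seen, also fell, with 301 and 309 CPM with dTAG, against 355 and 339 CPM in DMSO. Acsl5, which activates fatty acids, rose 3.23-fold without LIF, and its responses differed by -1.36, whereas those of Hacd3, a dehydratase of elongation, differed by 1.20. Agpat2, of phosphatidic acid synthesis, was 1.65-fold higher in tagged DMSO cells. Of 13 non-sterol isoprenoid genes 11 were tested, and 2 rose and 2 fell with dTAG, 5 rose and 1 fell without LIF, and 3 were higher and 1 lower in tagged DMSO cells. The called shares, 36.4%, 54.5% and 36.4%, were below those of all tested genes. Coq2, of ubiquinone synthesis, rose 1.56-fold with dTAG and 1.52-fold without LIF. Nus1, of dolichol synthesis, fell 1.23-fold with dTAG, and the farnesyltransferase subunit Fntb fell 1.51-fold without LIF. The responses of Fntb and of the other subunit gene Fnta differed by 0.50 and by -0.43. The prenylated-protein protease Zmpste24 and Pdss1, of ubiquinone synthesis, were 1.28-fold and 1.75-fold higher in tagged DMSO cells.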

How the data were processed

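Poly(A)-selected RNA of 8 libraries was read from one end after a strand-marking kit, per the labels' protocols. For each RefSeq transcript, the authors deposited raw counts of reads; per the submitters' processing notes the tools were HISAT2 and HTSeq and the build mm9, with no version or setting. Summary lines of the counter were left out of library sizes; reads without a feature were 10.4% to 14.9% of counted, ambiguous and such reads per library. Of 41565 accessions, 41451 were paired with a symbol through the RefSeq (GRCm38) and GENCODE tables, used for names and promoters only, and counts were summed per symbol.

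The counts went into edgeR 4.0.16 under R 4.3.3: TMM, filterByExpr, glmQLFit and glmQLFTest in 1 fit of 4 groups over 8 libraries with 4 residual degrees of freedom. P-values were adjusted by Benjamini-Hochberg over 10311 genes and called at 0.05; each standard error (SE) is the size of the log2 fold change over the root of its F. The fit was tested on simulated counts with known fold changes. There every gene had the same spread beyond sampling noise and few genes changed, unlike in these data. That run thus does not check the calls made here. Alternatives were DESeq2 1.42.0, other scalings and filters, other ways to combine accessions, fewer libraries and a replicate block. Figures used matplotlib 3.10.9.

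Members and lists were chosen with earlier results of these data known. Members called at 1.5-fold or more were to be given in every library, as were others where the text turns on them, and of each related list the 2 genes of smallest adjusted p per comparison were named. The Abca1 values by library and 4 of the 5 printed promoters were chosen after their values were seen. In every group the replicates differed beyond sampling noise (chi-square per degree of freedom 1.85 to 4.94 over genes).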

Additional observations from a re-analysis of the deposited data

How the results depend on the processing

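The counts of called members kept within 1.5 times of the reported ones in the 17 alternative settings, except with dTAG: leaving out 1 library gave 7 to 11 higher members. Of the member calls, 9 of 15 with dTAG, 16 of 20 without LIF, 12 of 21 between the control groups and 18 of 20 for the difference of responses were kept in every setting in which the member was tested. Over all genes, the count lower in tagged DMSO cells was 1409 with DESeq2 and 1462 to 2226 without 1 library, against 2283; the cause was not tested. Fits without 1 library let the filter pass more genes and assume that the lone library varies like the other groups. No scaling moved the median of all genes by more than 0.044 (log2).

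Sign changes were seen only for members without a call in that comparison. Over the fits without 1 library, log2 values ranged for Srebf1 from -1.01 to 1.51 and for Acly from -0.22 to 0.22 with dTAG; for Msmo1 from -0.19 to 0.03 and for Stard4 from -0.305 to 0.021 without LIF; and between the control groups for Nsdhl from -0.16 to 0.13, Srebf1 from -1.37 to 1.33, Acat2 from -0.048 to 0.011, Acaca from -0.085 to 0.033 and Fads2 from -0.065 to 0.024. For the difference of responses they ranged for Nsdhl from -0.078 to 0.204 and for Msmo1 from -0.118 to 0.092; Msmo1 was also at 0.020 with no filter, 0.000 with at least 5 CPM in 2 libraries and 0.013 with only 1-accession genes, against -0.002.

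Samples of the same replicate number did not deviate together over all tested genes (correlations from -0.010 to 0.046). This cannot exclude that the numbers mark pairs, since genes with few reads weighed as much as the others. With a replicate block, 11 members rose and 4 fell with dTAG, 5 rose and 16 fell without LIF, and 4 were higher and 18 lower in tagged DMSO cells. The added call was Acly, at -0.38 without LIF (edgeR adjusted p = 0.043) and -0.42 between the control groups (edgeR adjusted p = 0.044). The motif counts under the shorter window were 1, 4, 20 and 20 members, against 1, 5, 21 and 21. Depth limits Fdps, Srebf1 and Pmvk, the members with the fewest reads among those tested.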
